A study of Mus musculus with 2 samples.

Results

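The cells described here are 111 tdTomato-positive cells from mouse spinal cord taken 5 days after lysolecithin, in which the osteopontin gene Spp1 made up at least 0.5% of the messenger RNA counted and no copy of Gpnmb was counted. They were chosen by those 2 measured values, from 577 injured cells that had 200 or more genes and no more than 10% of their unique molecular identifiers (UMIs, 1 per captured RNA molecule) in mitochondrial genes, and they are 19.2% of them (exact Clopper-Pearson 95% interval 16.1% to 22.7%). The series held 1272 kept cells in all. Within the injured library, 54 cells met the Spp1 limit and had a Gpnmb UMI, and 412 cells were below the Spp1 limit and are called Spp1-low. Spp1-low cells were set by Spp1 alone, and 24 of them had a Gpnmb UMI. The uninjured library held 695 kept cells, of which 1 met the same rule.

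Both libraries came from Cx3cr1-CreER::Rosa26-tdTomato+ve mice on the C57BL/6J background, in which 4-hydroxytamoxifen permanently switches on the red protein tdTomato wherever the fractalkine receptor gene Cx3cr1 is active. All mice, uninjured ones included, had received 2 intraperitoneal injections of 1 mg at postnatal week 4, and 4 weeks after tamoxifen the cords were removed, digested with collagenase and sorted for tdTomato. The uninjured library was age-matched and had no lysolecithin, a lipid injected to destroy myelin. Cx3cr1 drives the recombination in microglia, in border macrophages and in circulating monocytes, which are later replaced from unlabelled precursors, so the red label alone does not name a cell type. There was 1 library per condition, and the labels give neither the number nor the sex of the animals. No difference has a replicate check, no test was made, and every interval covers counting error only.

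Osteopontin is a secreted phosphoprotein that binds integrins and the hyaluronan receptor CD44. Microglia express little of it in the healthy adult cord and are known to express it in development and around damaged myelin, often together with genes for lipid uptake, such as the lipoprotein lipase gene Lpl and the lipid carrier gene Apoe, and with matrix genes such as fibronectin (Fn1). Gpnmb encodes a transmembrane glycoprotein of the late endosome and lysosome that is known from lipid-laden macrophages. When microglia take on this state they are known to express less of the genes of the resting state, such as the purinergic receptor gene P2ry12.

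The sequences that precede an annotated start of 4 genes the results turn on are shown first. Spp1 and Gpnmb chose the cells, Igf1 had a high ratio to Spp1-low cells and UMIs in 71 of the 111 cells, and Rsad2 is an antiviral gene with UMIs in 16 of the cells. Each is the 250 bases before a transcription start that RefSeq annotates on GRCm38.p6, 5′ to 3′ on the gene's own strand, and capitals mark matches to any of 6 motifs searched on both strands.
Spp1, chr5:104434861-104435110, plus strand: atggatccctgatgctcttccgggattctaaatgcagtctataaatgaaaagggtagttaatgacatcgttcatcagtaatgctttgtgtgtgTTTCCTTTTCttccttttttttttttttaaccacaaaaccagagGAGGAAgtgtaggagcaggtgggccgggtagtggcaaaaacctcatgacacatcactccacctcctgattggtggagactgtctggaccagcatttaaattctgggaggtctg
Gpnmb, chr6:49036268-49036517, plus strand: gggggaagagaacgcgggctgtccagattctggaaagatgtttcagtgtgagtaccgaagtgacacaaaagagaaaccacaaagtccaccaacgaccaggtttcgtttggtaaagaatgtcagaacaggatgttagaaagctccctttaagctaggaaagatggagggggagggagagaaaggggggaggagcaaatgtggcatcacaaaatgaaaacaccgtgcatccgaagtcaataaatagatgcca
Igf1, chr10:87860861-87861110, plus strand: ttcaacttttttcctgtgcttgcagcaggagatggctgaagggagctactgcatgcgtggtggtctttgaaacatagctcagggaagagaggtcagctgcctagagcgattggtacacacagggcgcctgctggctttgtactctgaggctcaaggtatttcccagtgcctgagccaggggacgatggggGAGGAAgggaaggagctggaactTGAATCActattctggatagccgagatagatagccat
Rsad2, chr12:26456453-26456702, minus strand: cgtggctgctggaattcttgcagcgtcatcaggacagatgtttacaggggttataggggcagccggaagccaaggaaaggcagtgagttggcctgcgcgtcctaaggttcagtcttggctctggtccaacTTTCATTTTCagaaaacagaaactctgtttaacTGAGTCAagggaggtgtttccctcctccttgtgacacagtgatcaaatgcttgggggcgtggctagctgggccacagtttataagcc
The motifs were the PU.1 core GAGGAA, the AP-1 site TGANTCA, the E-box CACGTG, the M-box core CATGTG, the interferon-stimulated response element (GAAA, any 2 bases, GAAA) and the NF-kB site (GGGA, any 2 bases, TTCC). Among 32851 mouse windows of the same length, they occurred in 23.3%, 6.75%, 6.02%, 12.3%, 2.98% and 1.21%. The Spp1 window held the PU.1 core 113 to 108 bases before the start and, on the other strand, the interferon element 157 to 148 bases before it. The Igf1 window held the PU.1 core 60 to 55 bases before the start and the AP-1 site 37 to 31 bases before it, and the Rsad2 window held the interferon element at 120 to 111 and the AP-1 site at 87 to 81. None of the 6 motifs' letters occurred in the Gpnmb window. These matches are descriptions of letters and not binding sites, and Spp1 has a second annotated start at 104436192, whose window held none of the motifs. The Igf1 window lies inside the gene, which spans 87858265 to 87937042 in the annotation used below. It precedes a start downstream of the gene's first base.

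In GRCm38 (GENCODE M21), Spp1 (ENSMUSG00000029304) lies on chromosome 5 at 104435118 to 104441050, Gpnmb (ENSMUSG00000029816) on chromosome 6 at 49036546 to 49070929, Igf1 (ENSMUSG00000020053) on chromosome 10 at 87858265 to 87937042 and Rsad2 (ENSMUSG00000020641) on chromosome 12 at 26442746 to 26456452. Fn1 (ENSMUSG00000026193) lies on chromosome 1 at 71585520 to 71653200, Lpl (ENSMUSG00000015568) on chromosome 8 at 68880491 to 68907448 and P2ry12 (ENSMUSG00000036353) on chromosome 3 at 59216272 to 59262871. Each of these 7 genes is protein-coding in that annotation, and UMIs were counted at their 3′ ends.

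Spp1 ranged from 0.512% to 12.02% of a cell's UMIs in the 111 cells, with a median of 1.44% and quartiles of 0.786% and 2.76%. These cells held 26.3% of the injured library's UMIs and 48.3% of its Spp1 UMIs. The limit crossed a continuous range: the nearest cells inside it stood at 0.512%, 0.513%, 0.516%, 0.525% and 0.529%, and the nearest Spp1-low cells at 0.481%, 0.480%, 0.471%, 0.464% and 0.454%. Among injured cells without Gpnmb, 30 stood between 0.25% and 0.5% and 43 between 0.5% and 1%. In Spp1-low cells the median was 0.0716%, and 52 injured cells had no Spp1 UMI.

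Depth moved with the rule. The 111 cells held 814619 UMIs, with a median of 7118 per cell (quartiles 4577 and 9478, range 1587 to 15249) and 2054 genes. Spp1-low cells had a median of 3855 UMIs and 1447 genes, the cells with Gpnmb 8277 and 2145, and uninjured cells 3003 and 1277. Because a missing Gpnmb UMI can be a matter of depth, the 54 cells with Gpnmb were thinned at random to equal depth. At 1500 UMIs, 24 of the 54 (44.4%) had no Gpnmb UMI left, and at 3000 UMIs 12 of 52 (23.1%). Only 1 Gpnmb UMI had placed 15 of the 54 cells in that group, 15 more had 2 to 4, and 24 had 5 or more, so the line between both Spp1-rich groups is not sharp. The plot of Spp1 share against UMIs per cell shows all 577 cells.

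**Figure D1:**
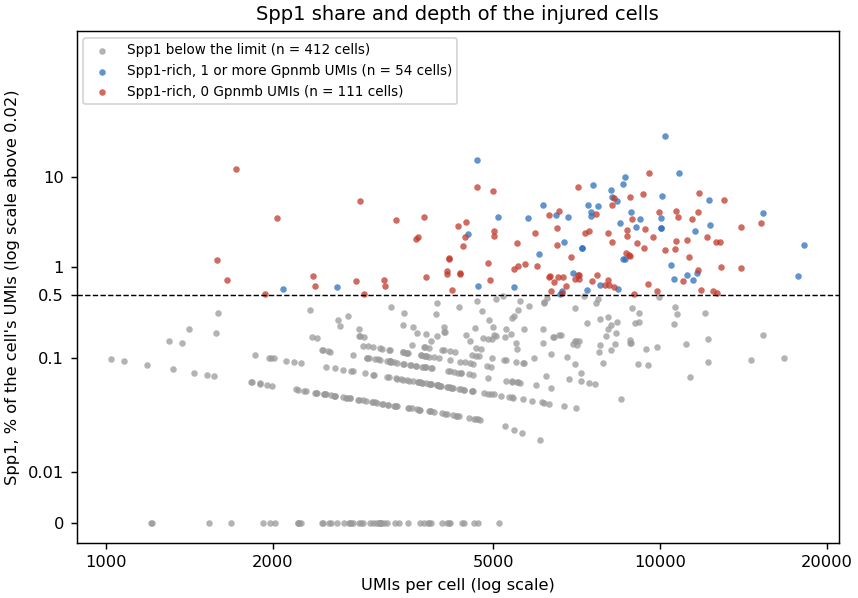
Spp1 as a percentage of the cell's UMIs (vertical axis, log scale above 0.02 and linear below) against UMIs per cell (horizontal axis, log scale), with 1 point per injured cell and a dashed line at the 0.5% limit. The 111 cells without Gpnmb have a median of 7118 UMIs and lie among the 54 cells with Gpnmb, and the 412 Spp1-low cells reach the limit without a gap.

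Spp1 UMIs also occurred in barcodes with markers of other cell types, and whether these were free RNA, mixed barcodes or expression was not tested. Of the injured barcodes with at least 3 UMIs of endothelial, pericyte or oligodendrocyte precursor markers and fewer than 10 of microglia markers, 8 of 8 had a Spp1 UMI (median depth 3258 UMIs), at 743 CPM (UMIs scaled to a total of 1000000 per group), against 1190 CPM in Spp1-low cells and 22749 CPM in the 111 cells. The highest Spp1 share in any of these barcodes was 0.170%, below the 0.5% limit, and none was among the 111 cells. Apoe and the protease inhibitor gene Cst3 also had UMIs in 8 of 8. Lpl, Fn1, the growth factor gene Igf1 and the galectin gene Lgals3 had none, which in 8 barcodes allows a share of up to 37.5%. Of such barcodes in the uninjured library, 0 of 4 had a Spp1 UMI and 3 of 4 had a Fn1 UMI. No doublet caller was run. Per the labels, scatter gates removed doublets before capture, which does not cover cells that came to share a droplet. UMIs of both Xist, an RNA of the inactive X chromosome, and Y-linked genes occurred in 5 of the 111 cells. They also occurred together in 2 of the 54 cells with Gpnmb and 10 of the 412 Spp1-low cells. The part of doublets in the results was not tested.

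All 9 of 9 microglia markers had UMIs in the 111 cells, each cell had 3 or more UMIs of the list, and the list summed to 13185 CPM, against 15018 CPM in Spp1-low and 23143 CPM in uninjured cells. The lowest of the 111 cells had 6695 CPM of these markers and the highest 25766 CPM. Of 10 markers of perivascular and meningeal macrophages, Mrc1, Lyve1, Cd163 and Cd209f were at 0 UMIs and the list summed to 157 CPM, with 3 or more UMIs in 14 cells. Stab1, Pf4 and Ms4a7 held 44, 38 and 35 of its 128 UMIs. In Spp1-low cells the list summed to 162 CPM, with 3 or more UMIs in 27 of 412 cells, and in uninjured cells to 149 CPM. Of 8 monocyte markers, Ccr2, Ly6c2, Chil3 and F10 were at 0 and the list summed to 74.9 CPM, against 59.4 CPM in Spp1-low cells. Ms4a4c held 55 of its 61 UMIs in the 111 cells. Oligodendrocyte markers summed to 606 CPM against 1162 CPM in Spp1-low cells, with Mog and Ermn at 0 and 434 of the 494 UMIs from the iron carrier gene Trf. Of the other lists, endothelial markers summed to 33.1 CPM (Cldn5 and Slco1a4 at 0), pericyte markers to 1.23 CPM, oligodendrocyte precursor markers to 9.82 CPM, astrocyte markers to 19.6 CPM, neuron markers to 2.46 CPM, fibroblast markers to 55.2 CPM, T and NK cell markers to 22.1 CPM (all of it Lck), B cell markers to 11.0 CPM, neutrophil markers to 3.68 CPM, dendritic cell markers to 1.23 CPM and erythroid markers to 4.91 CPM. Their part in the results was not tested.

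The 4 marker genes did not occur together in every cell. Spp1, Lpl, Apoe and Fn1 all had a UMI in 60 of the 111 cells (54.1%), and after thinning to 1500 UMIs in 26 (23.4%). At that depth the share was 14.8% of the cells with Gpnmb, 2.24% of Spp1-low cells and 0 of 604 uninjured cells, which allows up to 0.497%. Apoe had UMIs in 100% of the 111 cells, Lpl in 80.2% and Fn1 in 57.7%. At equal depth Lpl had UMIs in 55.0% (45.2% to 64.4%) against 17.2% of Spp1-low cells (13.6% to 21.2%), and Fn1 in 33.3% (24.7% to 42.9%) against 6.22% (4.06% to 9.04%). The name given to the cells after their 4 markers thus holds for all 4 in a part of them.

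Against Spp1-low cells of the same library, the 111 cells had more RNA of Igf1, Fn1, Lgals3, Lpl and Plin2, and less of P2ry12, Cst3 and other resting microglia genes. Both groups were cut from the same cells by Spp1, so every value in this comparison is a description. UMIs were summed over the cells of each group and scaled to CPM, and a gene was called higher or lower at a 2-fold ratio if it had at least 50 UMIs in 1 group. Of 3813 such genes, 42 were at least 2-fold higher (1.1%) and 163 at least 2-fold lower (4.27%), and the median log2 ratio over all of them was −0.06. In cells with at least 4000 UMIs these counts were 27 and 42, of 2689 genes. Over all cells the groups held 814619 and 1818711 UMIs, so a gene could enter through the larger Spp1-low group alone. Spp1 itself, which the rule used, stood at 22749 against 1190 CPM.

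Igf1, which encodes insulin-like growth factor 1, had 309 CPM in the 111 cells and 72.0 CPM in Spp1-low cells, a log2 ratio of 2.103 (95% interval 1.79 to 2.42). Igf1 had UMIs in 71 of the 111 cells, with a median of 1.79 per 10000 UMIs and a highest cell at 16.5, and at equal depth in 27.0% of cells against 5.72%. Fn1, the matrix glycoprotein fibronectin, had 338 against 87.4 CPM (log2 1.95, 1.66 to 2.24). Lgals3, which encodes a galectin found in phagocytosing microglia, had 463 against 155 CPM (log2 1.58, 1.36 to 1.81), and its 5 highest cells held 42.2% of the UMIs. The annexin genes Anxa5 and Anxa2, whose products bind membrane phospholipids, had log2 ratios of 1.15 and 1.015. The matrix and growth factor list of 28 genes had 16 measured members, 5 of them higher by 2-fold or more and 2 lower (median 0.56). The lower genes were Mmp2, a gelatinase, with 11 UMIs in the 111 cells (log2 −1.26), and Hbegf, a ligand of the EGF receptor (−1.25). Platelet-derived growth factor A (Pdgfa) stood at −0.52.

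Lipid genes followed. Lpl, a lipase that acts on lipoprotein particles, had 770 CPM against 273 CPM (log2 1.49, 1.32 to 1.67). Plin2, which coats lipid droplets, had 669 against 289 CPM (log2 1.21, 1.04 to 1.39), with UMIs in 50.5% of thinned cells against 20.1%. The fatty acid carriers Fabp5 and Fabp3 had log2 ratios of 1.03 and 1.23, and Ch25h, which makes 25-hydroxycholesterol, had 613 against 280 CPM (log2 1.13). Apoe, at 32783 CPM against 22490 CPM, was below the 2-fold line (log2 0.54, 0.52 to 0.57), although the median cell carried 273 Apoe UMIs per 10000 against 81.3 in the median Spp1-low cell. The sterol exporters Abcg1 and Abca1 stood at 0.78 and 0.16. The lipid list had 17 measured genes, 5 higher by 2-fold or more and 1 lower (median 0.62). The lower gene, Fabp4, had 2 UMIs in the 111 cells (log2 −3.95, −7.02 to −2.04), and it had no more than 3 UMIs in either group once barcodes with vascular or precursor markers were left out. In sterol synthesis, 5 genes were measured and 2 were lower: Hmgcs1, an enzyme of the mevalonate pathway (log2 −1.07), and Insig1, which holds back the sterol sensor in the endoplasmic reticulum (−1.71, −2.49 to −1.02).

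Depth and sex moved some of these ratios. In cells with at least 4000 UMIs (94 of the 111), Igf1 stood at 1.65, Fn1 at 1.45, Lpl at 1.18 and Lgals3 at 1.15, still past 2-fold, whereas Plin2 stood at 0.77, Ch25h at 0.78, Fabp3 at 0.85 and Fabp5 at 0.50. The injured library held cells of both sexes: 48 of the 111 had UMIs of Xist (a long RNA of the inactive X chromosome) alone, 32 of Y-linked genes alone, 5 of both and 26 of neither. In Xist cells and Y-linked cells respectively, Igf1 stood at 2.36 and 2.28, Fn1 at 2.12 and 2.15, Lpl at 1.24 and 1.197 and Lgals3 at 1.16 and 1.80. Among the 43 named genes past 2-fold, which include the rule gene Spp1, 38 had the same direction in both sexes and 28 were past 2-fold in both. Many of them were named for their ratios over these same cells, so part of this agreement was fixed by the choice. Some had few UMIs, such as Fabp4 with 0 in the Xist cells of both groups. The share over all measured genes was not computed. Lgals3 at a Spp1 limit of 1% stood at 0.75, and the scavenger receptor gene Msr1 at 0.90.

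Receptors for uptake and for osteopontin differed less. Msr1, the macrophage scavenger receptor, had 90.8 against 28.6 CPM (log2 1.67, 1.14 to 2.21) and was the 1 gene of 18 measured in the phagocytic and scavenger list past 2-fold. That list had a median of 0.10. Trem2, a lipid-sensing receptor, had 1850 against 1725 CPM (log2 0.10), its signalling partner Tyrobp stood at 0.14, and the bridging receptors Axl and Mertk stood at 0.28 and −0.84. The inhibitory receptor genes Lilr4b and Lilrb4a had log2 ratios of 1.81 (1.37 to 2.26) and 1.15. These are near-identical neighbours, so reads could be split between them. Of 10 osteopontin receptor genes, 5 were measured and none was past 2-fold. Cd44 stood at 0.06 with 28 UMIs, and the integrin genes Itga5, Itgb5, Itgav and Itgb1 at 0.48, 0.41, −0.11 and −0.20. For Cd44, Itga5, Itgav and Itgb1 the counting interval spanned 0.

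Resting microglia genes were lower. P2ry12 had 378 CPM against 1190 CPM in Spp1-low cells (log2 −1.65, −1.83 to −1.48), with UMIs in 38.7% of thinned cells against 71.1%. Cst3, which encodes cystatin C, had 8101 against 24488 CPM (log2 −1.60), and the median cell carried 69.2 per 10000 UMIs against 255. Adgrg1, an adhesion receptor of microglia, had 11 UMIs, each in its own cell, against 73.7 CPM (log2 −2.45, −3.48 to −1.56). The fructose transporter gene Slc2a5, the lectin gene Siglech and Crybb1 stood at −1.56, −1.24 and −1.36. The homeostatic list had 22 measured genes, 6 of them lower by 2-fold or more and 0 higher (median −0.70). Tmem119, a surface marker of microglia, was below the 2-fold line at 518 against 910 CPM (log2 −0.81). Cx3cr1, whose promoter drives the label, stood at −0.32, and Fcrls, an Fc receptor-like gene of microglia, at 0.46. P2ry12, Cst3, Adgrg1 and Insig1 were at least 2-fold lower in each of the 23 alternatives that gave a value.

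Other genes at the lower end had few UMIs in the 111 cells. The C-type lectin genes Clec4a2 and Clec4a3 had 7 UMIs each (log2 −3.12 and −2.69), the reticulon gene Rtn1 had 7 (−2.48), and the iron exporter gene Slc40a1 had 10 (−1.86). The tubulin gene Tubb2a had 66.3 against 204 CPM (−1.62), and the lysosomal protease gene Ctsf stood at −1.24. Fabp7, Ptn and S100a16 had 1, 2 and 3 UMIs, with log2 ratios of −4.62 (−9.95 to −2.08), −4.15 (−7.22 to −2.24) and −2.90 (−5.23 to −1.27). Without the barcodes that carried vascular or precursor markers, Fabp7 had 1 UMI against 6, Ptn 2 against 12, and S100a16 had no more than 3 UMIs in either group.

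**Figure D2:**
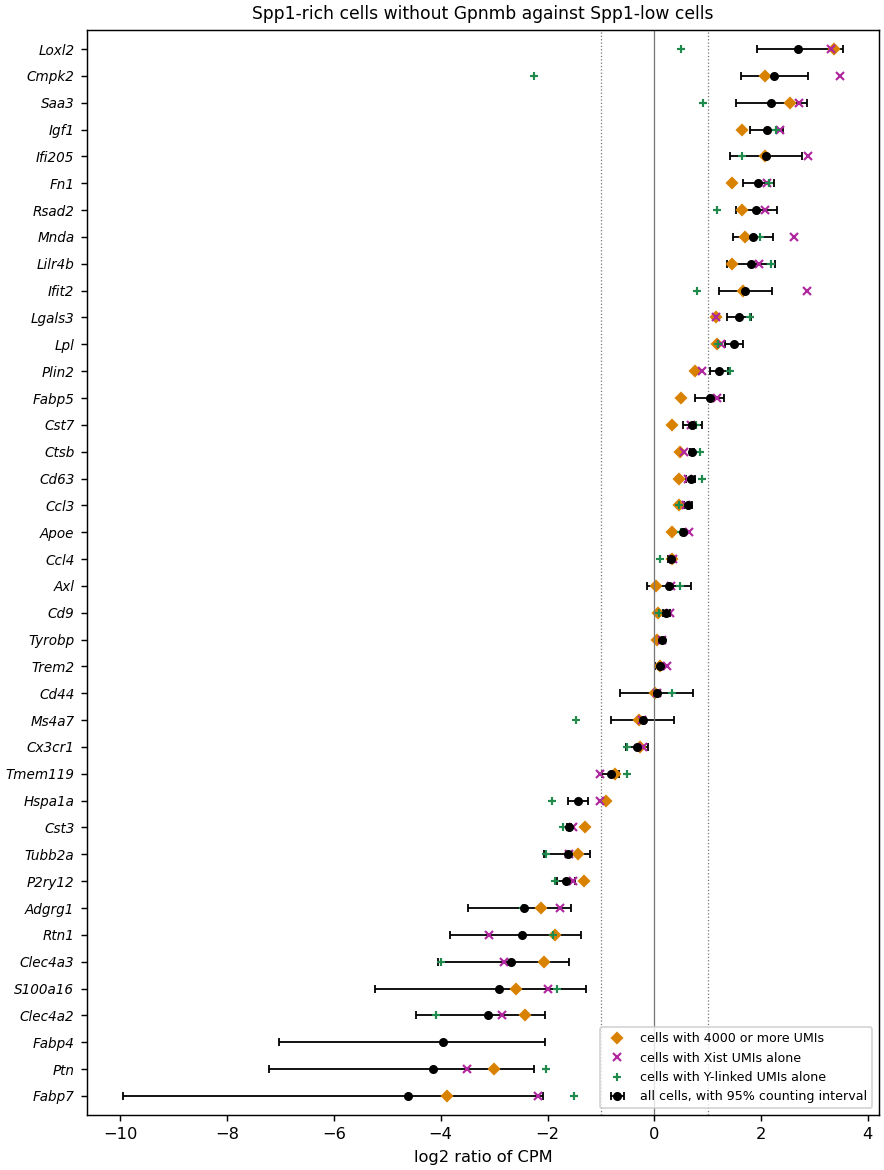
Log2 ratio of CPM, the 111 Spp1-rich cells without Gpnmb over 412 Spp1-low cells, for the 12 highest, 12 lowest and fixed genes with at least 50 UMIs in 1 group; black points are all cells with exact 95% counting intervals, diamonds cells with at least 4000 UMIs, crosses cells with Xist UMIs alone and plus signs cells with Y-linked UMIs alone, dotted lines mark 2-fold. Igf1, Fn1 and Lpl lie past 2-fold in all 4 versions, whereas Cmpk2 lies on opposite sides in the 2 sexes, with 1 UMI in the Y-linked cells among the 111.

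Injured cells without Gpnmb were also split into bands of Spp1 share on both sides of the limit. From the 144 cells with at most 0.05% Spp1 to the 43 cells at 0.5 to 1%, Lpl went from 127 to 618 CPM, Fn1 from 24.6 to 252 CPM and Igf1 from 15.1 to 206 CPM. In the 43 cells at 2% or more, Igf1 and Fn1 stood at 440 and 409 CPM. Lpl had 866 CPM at 1 to 2% and 843 CPM above it, and Apoe 34059, 33838 and 31022 CPM over the 3 bands. Cst3 had 35605 CPM in the lowest band of all, 10127 CPM at 0.5 to 1% and 6980 CPM in the highest band. P2ry12 had 1802, 475 and 305 CPM in the same bands. Lgals3 had 573, 294 and 470 CPM over the 3 bands of the 111 cells. A single cell, at 0.731% Spp1 and so in the band of 0.5 to 1%, held 26.8% of the Lgals3 UMIs of the 111 cells. The bands were not computed without that cell, so these values do not settle whether Lgals3 had an order within the 111 cells. Median depth was 3512 UMIs in the lowest band, 6668 at 0.5 to 1%, 8698 at 1 to 2% and 7678 in the highest band, and its part in these values was not tested.

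**Figure D3:**
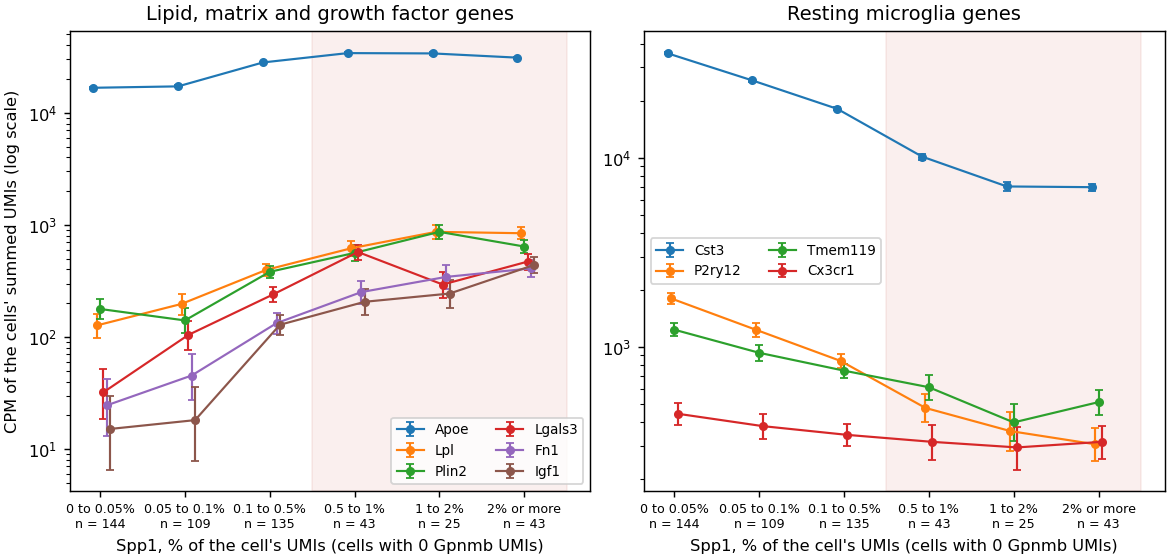
CPM of summed UMIs (log scale) with exact Poisson 95% intervals in 6 bands of Spp1 share, for injured cells with 0 Gpnmb UMIs, lipid, matrix and growth factor genes on the left and resting microglia genes on the right; shading marks the bands that make up the 111 cells and n gives the cells per band. Igf1 goes from 15.1 to 440 CPM and P2ry12 from 1802 to 305 CPM between the lowest and highest bands, and Apoe stays near 31022 to 34059 CPM within the shaded bands.

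Single antiviral genes were concentrated in a few of the 111 cells, whereas 108 of them (97.3%) had 3 or more UMIs of the type I interferon list and the 10 highest cells held 48.4% of its UMIs. Rsad2 and Cmpk2, interferon-induced genes for viperin and a mitochondrial nucleotide kinase, had log2 ratios of 1.91 (1.54 to 2.29) and 2.24 (1.63 to 2.89), with UMIs in 16 and 13 cells, and the 5 highest cells held 71.2% and 72.9% of them. Ifit2, Ifi205 and Mnda, further interferon-induced genes, stood at 1.70, 2.08 and 1.84. The type I interferon list had 22 measured genes, of which Ifit1, Ifit2, Rsad2, Usp18, Ifitm3 and Cmpk2 (6) were higher by 2-fold or more and 0 lower (median 0.74). The median cell of the 111 had 0.258% of its UMIs in this list against 0.205% in Spp1-low cells. In the 54 cells with Gpnmb, 96.3% had 3 or more UMIs of the list and the 10 highest cells held 52.1%. In Spp1-low cells these values were 84.2% and 21.1%. They were not thinned, and the groups differed in depth and size. In the 3 Spp1 bands of the 111 cells the list summed to 5243, 8011 and 3911 CPM, against 4028 CPM in the band of 0.1 to 0.5%. Of the 10% of injured cells with the highest share, 16 were among the 111 (14.4%), 7 among the 54 (12.96%) and 35 among the 412 (8.50%). Leaving out those highest cells gave a list median of −0.09 over the 15 genes still measured, with Rsad2 at −0.92, Cmpk2 at −0.34 and Ifit2 at −0.68. The cells left out were chosen by this same list and made up more of the 111 than of the 412. A fall was thus fixed by the choice, and these values are no separate check. In Y-linked cells Cmpk2 stood at −2.26 (1 UMI in the 111) and Rsad2 at 1.17, against 3.49 and 2.06 in Xist cells.

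Single cells also set Loxl2, a lysyl oxidase, and Parp1, a DNA repair enzyme. In the 111 cells 51 of 55 Loxl2 UMIs and 88 of 113 Parp1 UMIs came from the same cell, of 8055 UMIs, and the ratios of 2.69 and 1.39 describe that cell. The acute-phase gene Saa3 (log2 2.18) and the neutrophil chemokine gene Cxcl1 (1.60) had 87.3% and 87.5% of their UMIs in 5 cells.

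The cytokine list had 19 measured genes, of which Cxcl1, Cxcl10 and Il1rn (3) were higher by 2-fold or more and 0 lower (median 0.31). Il1rn, the interleukin-1 receptor antagonist, had 164 against 68.2 CPM (log2 1.27, 0.91 to 1.63). Cxcl2, a neutrophil chemokine, had 4068 against 2049 CPM (log2 0.99), Ccl3 stood at 0.63 and Ccl4 at 0.31. Il1a and the monocyte chemokine gene Ccl7 stood at −0.49 and −0.91.

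In the damage-associated microglia list, a published signature of microglia in disease that holds Igf1, Lpl, Lgals3 and other genes above, 7 of 26 measured genes were higher by 2-fold or more and 0 lower (median 0.62). Its other members stood lower: the cystatin gene Cst7 at 0.72, the cathepsin gene Ctsb at 0.70, the tetraspanin genes Cd63 and Cd9 at 0.68 and 0.22, and the lysozyme gene Lyz2 at −0.63. Of 17 measured glycolysis genes 0 were past 2-fold with a median of 0.56 (Pgam1 0.88, Pkm 0.71, Aldoa 0.69). Of 30 lysosome genes 0 were higher and 1 lower, with a median of 0.24. Early response genes known from tissue dissociation had a median of −0.37 with 2 of 24 lower, both heat shock genes: Hspa1a had 334 against 900 CPM (log2 −1.43) and Hspa1b 8 UMIs (−2.22). Medians were 0.16 for oxidative phosphorylation (21 genes), 0.14 for oxidative stress and iron (13), 0.01 for MHC class I (9), −0.04 for MHC class II (6), −0.15 for ribosomal proteins (10) and −0.26 for sex-linked genes (3). The lists for S phase and for G2 and M phase had medians of 0.66 (3 genes) and 0.33 (7 genes). The sign of the second was not stable: over the 5 genes measured in cells with at least 4000 UMIs the median was −0.04, and over the 2 genes measured at 1500 UMIs per cell, in Xist cells and in Y-linked cells it was −0.58, −0.31 and −0.39. The S phase median in Y-linked cells was −0.10 (2 genes). Mki67, a marker of dividing cells, had 14 UMIs in 6 of the 111 cells.

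**Figure D4:**
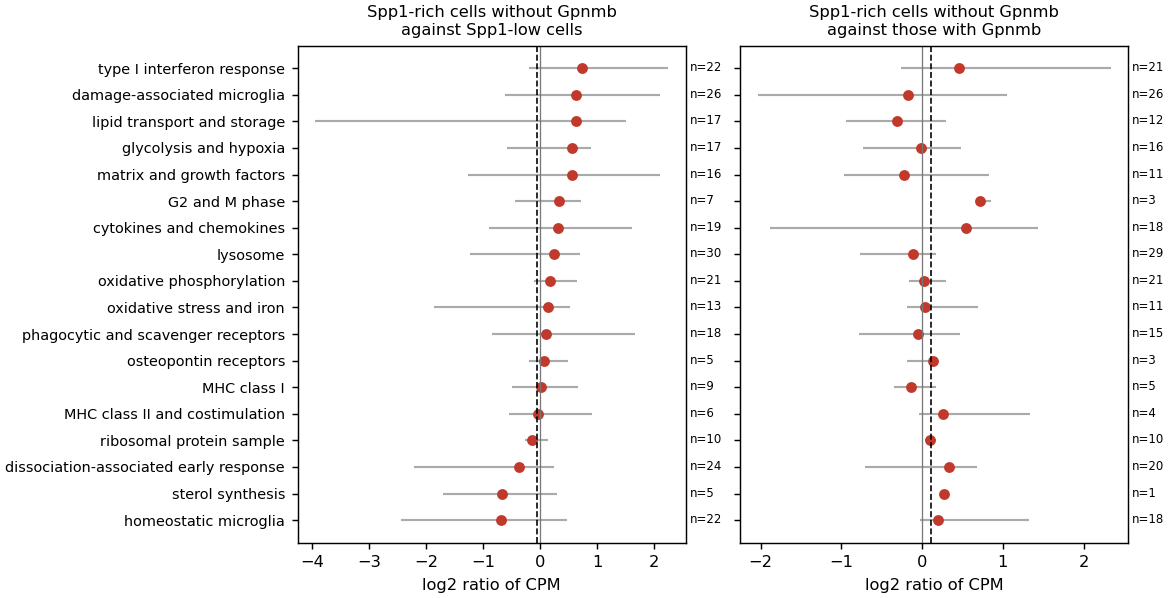
Median (red point) and range (grey line) of log2 CPM ratios over the measured genes of each list with 5 or more of them against Spp1-low cells, on the left against Spp1-low cells and on the right against Spp1-rich cells with Gpnmb; dashed lines mark the median of all measured genes (−0.06 and 0.12) and n the measured genes. Homeostatic genes have a median of −0.70 on the left and 0.20 on the right, and damage-associated genes 0.62 and −0.17.

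Against the 54 Spp1-rich cells with Gpnmb, the 111 cells had less RNA of Ms4a7, Cd5l and Lyz2 and more of Ccl12, Cxcl10 and Il1a. Of 2023 measured genes, 38 were at least 2-fold higher in the 111 cells (1.88%) and 5 lower (0.247%), and the median log2 ratio was 0.12. The 111 cells were the larger group here (814619 against 462181 UMIs), so a gene could enter through them alone. Gpnmb, which chose the groups, was 1 of the 5. The others were Ms4a7, a membrane gene of border macrophages (43.0 against 236 CPM, log2 −2.46, −3.05 to −1.90), Cd5l, an apoptosis inhibitor secreted by macrophages (−2.38), Lyz2 (1770 against 7259 CPM, −2.04) and Ccl7 (−1.88). Apoe, at 32783 against 62783 CPM, stood at −0.94, Lgals3 at −0.96, Igf1 at −0.89 and Fabp5 at −0.84, whereas Lpl stood at −0.04 (−0.23 to 0.14). Spp1 stood at −0.75, with medians of 1.44% and 2.77% of UMIs.

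Several signalling genes stood on the higher side against cells with Gpnmb. Ccl12, a monocyte chemokine, had 1207 against 448 CPM (log2 1.43, 1.21 to 1.65), with 46.4% of its UMIs in 5 cells. The ligand gene Tnfsf9 and Il1a stood at 1.61 and 1.30, Cxcl10 at 1.11 and Ccl4 at 0.92 (5662 against 2986 CPM). Fn1 had 338 against 190 CPM (log2 0.83, 0.47 to 1.19). P2ry12 stood at 0.55 and Siglech, the 1 homeostatic gene of 18 past 2-fold, at 1.33. The cytokine list had 18 measured genes here, 4 higher by 2-fold or more and 1 lower (median 0.54).

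Markers of border macrophages moved with this contrast, and their part in it was not tested. The list summed to 157 CPM in the 111 cells and 385 CPM in the cells with Gpnmb, with 3 or more UMIs in 14 of 111 and 22 of 54 cells, and Mrc1, Lyve1, Cd163 and Cd209f at 0 in both. Ms4a7 was itself in the list and held 35 of 128 and 109 of 178 of those UMIs. Without the cells that had 3 or more such UMIs, Lyz2 stood at −1.09, Cd5l at −1.27, Ccl7 at −0.60, Apoe at −0.75, Igf1 at −1.15 and Ccl12 at 1.07. At 1500 UMIs per cell Lyz2 stood at −2.19, Ms4a7 at −2.85 and Ccl7 at −0.65. With groups formed again after thinning to 3000 UMIs, Ccl7 stood at 0.43 and Lyz2 at −2.21.

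**Figure D5:**
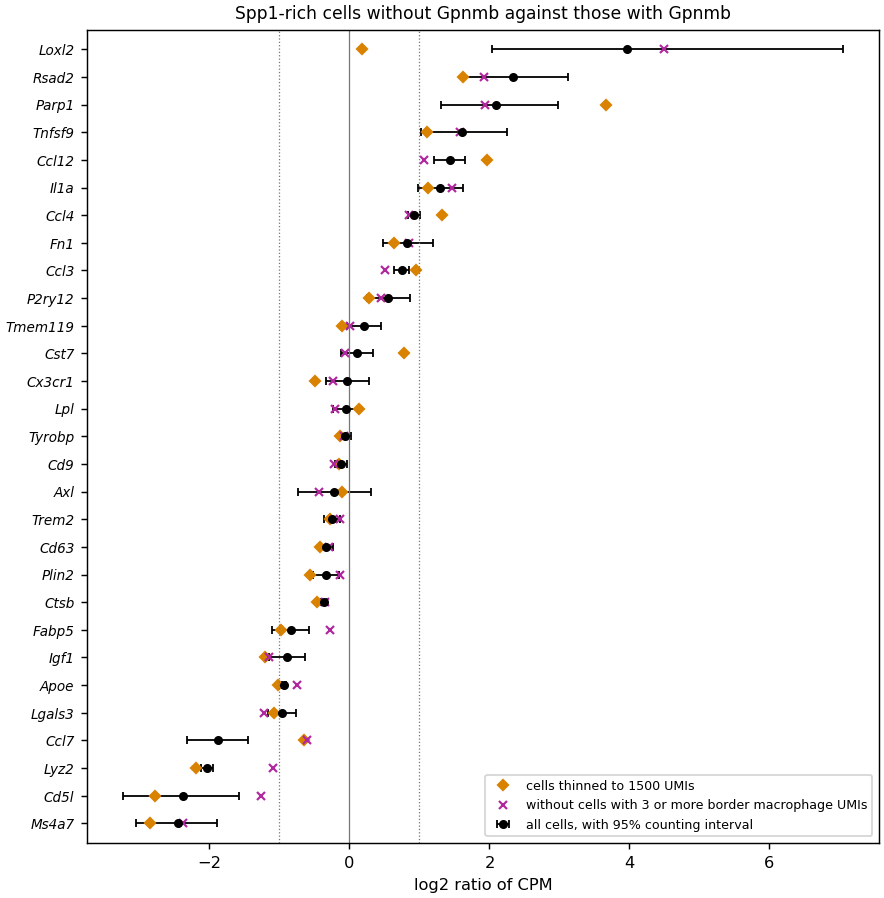
Log2 ratio of CPM, the 111 Spp1-rich cells without Gpnmb over the 54 with Gpnmb, for the 6 highest, 6 lowest and fixed genes; black points are all cells with exact 95% counting intervals, diamonds cells thinned to 1500 UMIs and crosses the cells left after removing those with 3 or more border macrophage UMIs, dotted lines mark 2-fold. Lyz2 and Cd5l lie past 2-fold lower in all 3 versions and Lpl lies near 0, at −0.04. Ms4a7 also lies past 2-fold lower in each, but it belongs to the marker list used to remove cells, so its cross is no separate check.

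Against uninjured cells the same genes stood further apart. Of 4499 measured genes, 256 were at least 2-fold higher in the 111 cells (5.69%) and 794 at least 2-fold lower (17.6%), and the median log2 ratio was −0.19. The uninjured group held more UMIs (2093084 against 814619), so a gene with few UMIs in the 111 cells could enter through it alone. In cells with at least 4000 UMIs (94 of the 111 and 131 uninjured), 248 genes were higher and 248 lower, of 2162 measured. Over all cells the split also moved with the scaling. With TMM factors, which shifted each ratio by 0.10, it was 313 higher and 689 lower, and with DESeq2 size factors, a shift of 0.17, it was 355 and 609. Spp1 stood at 8.04, Ch25h at 6.08 (613 against 9.08 CPM), Fn1 at 5.88 (338 against 5.73 CPM), Igf1 at 5.53 (309 against 6.69 CPM), Plin2 at 4.36, Lpl at 3.85 and Apoe at 2.97 (32783 against 4187 CPM). Ifi205 had 0 uninjured UMIs and was at least 48.8-fold higher, and Rsad2 stood at 6.68. Lower were Adgrg1 (log2 −4.17), Slc2a5 (−3.48), Cst3 (8101 against 74425 CPM, −3.20) and P2ry12 (378 against 3294 CPM, −3.12). The MHC class II gene H2-Eb1 stood at −4.41 with 4 UMIs in the 111 cells.

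Of 22 homeostatic genes, 15 had at most 0.5 times the uninjured level and 0 were higher by 2-fold (median −1.60), of 26 damage-associated genes 16 were higher and 0 lower (1.91), and of 21 interferon genes 20 were higher (3.49). The interferon median was 1.02 (11 genes measured) without the 10% of injured cells highest in that list and 1.93 (5 genes) in Y-linked cells. The first of these cuts used the list itself and removed no uninjured cells, so a fall was fixed by it. Of 15 lipid genes 11 were higher (2.97), and of 8 MHC class II genes 5 were lower (−1.44). The MHC class II median was −0.35 (6 genes) without cells that had 3 or more border macrophage UMIs, −0.50 (5 genes) without the 5% of cells with most UMIs of each gene and −0.52 (5 genes) in Y-linked cells. The libraries differed in sex: Xist had 235 UMIs in the 111 cells and 8 in 695 uninjured cells, of which 235 carried Y-linked UMIs alone and 6 Xist alone. In Y-linked cells alone, Fn1 stood at 5.26, Igf1 at 5.49, Lpl at 3.83, Apoe at 2.56, Cst3 at −3.22 and P2ry12 at −3.34. Each of these 6 genes was past 2-fold in the same direction as over all cells. Rsad2 had 6 UMIs in the Y-linked cells among the 111 and 0 in uninjured ones, Ifi205 5 and 0, and H2-Eb1 0 and 14.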

How the data were processed

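Cells sorted for tdTomato were captured in droplets, 1 library per condition, from 2500 sorted cells each. Both deposited tables hold UMI counts, in whole numbers, by gene and barcode (27998 genes, 705 uninjured and 580 injured barcodes). The tools named are Seurat 2.1.0, Cell Ranger 2.0.1 and STAR, and the builds mm10 and GRCm38.p5, per the submitters' processing notes. The gene annotation and any cell filter were not given in the sources used here. These count tables were used as deposited. The limit of 10% mitochondrial UMIs removed 10 uninjured and 3 injured barcodes, the minimum of 200 genes removed 0, and the 2 libraries shared 0 barcodes. Kept cells held 2093084 and 3095511 UMIs.

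UMIs were summed per group of cells and scaled to CPM, and log2 ratios carry exact 95% Poisson-ratio intervals, shares exact Clopper-Pearson intervals, both for counting error only. The limit given for a share of 0 is instead 3 divided by the number of cells or barcodes, which is below the exact bound. PCR duplicates are collapsed by UMIs. Cells are not replicates, so no test was run. Cells were thinned without replacement to 1500 or 3000 UMIs (seed 7). A fold against a group at 0 used a floor of 3 counts over the group. Genes named are the 12 highest and 12 lowest against Spp1-low cells and the 6 highest and 6 lowest in each other comparison, ranked by the interval bound nearest 0, up to 4 per list from 20 gene lists, and 27 fixed genes; other genes were named from the lists after their values were seen. The cells and lists were chosen with earlier results of these data known. There were 16 marker lists. Alternatives covered the Spp1 limit, depth, weighting, UMI minimum, scaling, cell filters and sex, and 4 were added after seeing the data. Scripts were tested on simulated data. Promoter windows came from RefSeq (GRCm38.p6), where 8 of 10 genes asked for matched by symbol; Lpl and Fn1 have none. Tools were Python 3.11.15, numpy 2.4.6, scipy 1.17.1, pandas 2.3.3, matplotlib 3.10.9, R 4.3.3, edgeR 4.0.16 (TMM factors) and DESeq2 1.42.0 (size factors). Results for some genes are not reported here.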

Additional observations from a re-analysis of the deposited data

Results flagged for a closer look

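Cxcl1, a neutrophil chemokine gene, differed from Spp1-low cells in opposite directions in the sexes. In cells with Xist UMIs alone the log2 ratio was 2.83 (95% counting interval 2.05 to 3.69), from 69 UMIs in the Spp1-rich cells without Gpnmb and 17 in Spp1-low cells. In cells with Y-linked UMIs alone it was −3.48 (−8.85 to −0.84), from 1 UMI against 21. The difference between the sexes was not tested, and over all 111 cells 87.5% of the Cxcl1 UMIs came from 5 cells.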

How the results depend on the processing

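With the settings of the report the 111 cells were 19.2% of the injured cells, with 42 genes higher and 163 lower against Spp1-low cells, 38 and 5 against Spp1-rich cells with Gpnmb, and 256 and 794 against uninjured cells. A Spp1 limit of 0.25% gave a share of 24.4%. A limit of 1% gave 11.8% and 8 genes lower against cells with Gpnmb, and with Spp1-low cells also held below 0.25% the share was 11.8%, with 67 genes higher against Spp1-low cells and 8 lower against cells with Gpnmb. Thinned to 1500 UMIs, where fewer genes were measured, 25 and 76 genes were higher and lower against Spp1-low cells, 19 higher against cells with Gpnmb, and 126 and 459 against uninjured cells; at 3000 UMIs the last counts were 149 and 435. Groups formed after thinning to 3000 UMIs gave a share of 24.9%, 103 genes lower against Spp1-low cells, 157 and 445 against uninjured cells, and Ccl7 at 0.43 against cells with Gpnmb. Cells with at least 4000 UMIs gave a share of 28.1%, 27 and 42 genes against Spp1-low cells and 248 and 248 against uninjured cells. The mean of per-cell CPM gave 67 higher against Spp1-low cells and 9 lower against cells with Gpnmb.

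A minimum of 20 UMIs gave 100 higher and 493 lower against Spp1-low cells, 211 and 25 against cells with Gpnmb and 429 and 1454 against uninjured cells. A minimum of 1 UMI gave 501 and 1234, 991 and 484, and 998 and 2127 in the same order. A minimum of 100 UMIs gave 25 and 59 against Spp1-low cells, 15 higher against cells with Gpnmb, and 157 and 427 against uninjured cells. DESeq2 size factors gave 8 lower against cells with Gpnmb. Leaving out cells with 3 or more cell cycle UMIs kept 177 of 577 injured cells and gave a share of 10.7%. That limit is a raw count and so removes deep cells more readily, and the part of depth in this share was not tested. With 19 of the 111 cells left, the other comparisons were not made.

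Without the highest 10% of interferon cells, chosen by a list that holds Cmpk2, Ifit2 and Rsad2, 8 genes were lower against cells with Gpnmb. Log2 ratios against Spp1-low cells were then −0.34 for Cmpk2, −0.68 for Ifit2, −1.0003 for Loxl2, −0.78 for Parp1 and −0.92 for Rsad2; against cells with Gpnmb −1.23 for Cmpk2, −0.076 for Ifit2 and −0.40 for Rsad2; and against uninjured cells −0.092 for Ccl12, −1.47 for Loxl2 and −0.37 for Parp1. Xist cells alone gave 50 lower against Spp1-low cells and 25 higher against cells with Gpnmb. Y-linked cells alone gave 26 and 47 against Spp1-low cells, with Cmpk2 at −2.26, Cxcl1 at −3.48, Cxcl10 at −0.27 and Ifit1 at −0.26, and 139 and 367 against uninjured cells, with Ccl7 at −0.10, Cxcl1 at −2.26 and Loxl2 at −0.37. Uninjured Xist cells (6) and Y-linked cells with Gpnmb (14) were too few to compare. Of alternatives added after seeing the data, leaving out border macrophage marker cells gave H2-Ab1 0.72 against uninjured cells. Leaving out for each gene the 5% of cells with most UMIs gave 87 lower against Spp1-low cells, 10 lower against cells with Gpnmb and 446 lower against uninjured cells. Parp1 then stood at −0.59, −0.18 and −0.32 in the 3 comparisons and H2-Ab1 at 0.75 against uninjured cells. Beyond fewer cells or genes measured, the cause was not tested. No paired analysis was possible because each condition had 1 library. Depth limits genes with few UMIs and the line between cells with and without Gpnmb.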
